A study of Mus musculus with 43 samples.

Results

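The respiratory chain genes described here are the genes that encode the subunits of complexes I to V of oxidative phosphorylation and the complex I assembly factors of the Nduf family. They were chosen by name alone, as *Nduf* genes, *Sdha*, *Sdhb*, *Sdhc* and *Sdhd*, *Uqcr* genes, *Cox4* to *Cox8* genes, *Atp5* genes and the protein-coding genes of the mitochondrial genome, and 8 names that contain -ps were left out. This rule found 110 of the 35825 genes in the tables, of which 97 are nuclear and 13 are mitochondrially encoded. The rule itself uses names and no measured value.

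The respiratory chain passes electrons from NADH and succinate to oxygen and uses the proton gradient that results to make ATP. Complex I accepts electrons from NADH, complex II from succinate, complex III passes them to cytochrome c, complex IV reduces oxygen, and complex V is the ATP synthase. Complexes I, III, IV and V each combine subunits made from the mitochondrial genome with subunits made from nuclear genes and imported, whereas complex II is wholly nuclear, and neurons depend on this pathway for most of their ATP.

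The data comprise 43 single neurons of the lateral nucleus accumbens that project to the ventral tegmental area (NAcLat→VTA cells), each drawn through a patch pipette in a brain slice and sequenced as 1 library of polyadenylated RNA. By the labels, 23 cells came from mice on a regular diet (REG, labelled NORM in the series) and 20 from mice on a high-fat diet (HFD), and no other treatment or genotype separates the groups. Batch 1 holds 13 REG and 5 HFD cells and batch 2 holds 10 REG and 15 HFD cells. The labels name no mouse, strain, sex or age, so a diet counts here as a single sample: no test was made, and the spread over cells is given in its place.

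The total count of a cell lay between 176961 and 16919555 with a median of 1426795, and the median was 1427698 in REG and 1416982 in HFD cells. The row of *Lars2*, a mitochondrial leucyl-tRNA synthetase gene, took between 2.33% and 79.8% of the counts of a cell, so alternatives with other totals are given where they change a direction. Most listed markers of GABAergic medium spiny neurons, the projection cells of the accumbens, were found in every cell. *Gad1*, *Gad2*, *Drd1*, *Tac1*, *Pdyn*, *Ppp1r1b*, *Rgs9*, *Pde10a* and *Foxp1* had counts in all 43 cells. *Bcl11b* had counts in 42 cells, and *Slc32a1* and *Isl1* in 36 cells each. The 3 glutamatergic markers together had a median of 4.51 CPM in REG and 4.27 CPM in HFD cells. CPM stands for counts per 1000000 counts of the same cell and is used to compare diets. TPM, transcripts per 1000000, also divides by transcript length and is used to compare genes.

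The nuclear members were among the more abundant transcripts of these cells. A filter that kept genes above 15 CPM in at least 5 cells with a mean above 4 CPM left 10802 genes, among them 86 of the 97 nuclear members and the 13 mitochondrially encoded members. The median of the mean TPM was 367 over these 86 nuclear members and 25.02 over all genes that passed, and 73 of the 86 lay above the 90th percentile of those genes. A count was found in all 43 cells for 36 of the 86 (41.9%), against 10.1% of all genes that passed. The coefficient of variation of the CPM over cells had a median of 1.01 for the nuclear members and 1.596 for all genes that passed. These comparisons describe the filtered genes and were not tested.

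Among the nuclear complexes, complex IV had the highest levels. Its 12 members that passed had a median of 822 TPM, complex III 703 TPM, complex V 485 TPM, complex I 338 TPM and complex II 134 TPM, while the 8 complex I assembly factors, which help to build the complex and are not part of it, had a median of 46.3 TPM. The gene with the highest mean was *Cox8a*, a small complex IV subunit, at 1886 TPM, between 139 and 5102 TPM in single cells. It was followed by *Cox4i1*, the largest nuclear subunit of complex IV, at 1618 TPM and by *Cox6c* at 1483 TPM. The ranges of these genes over cells overlapped widely, so their order holds for the means alone.

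**Figure D1:**
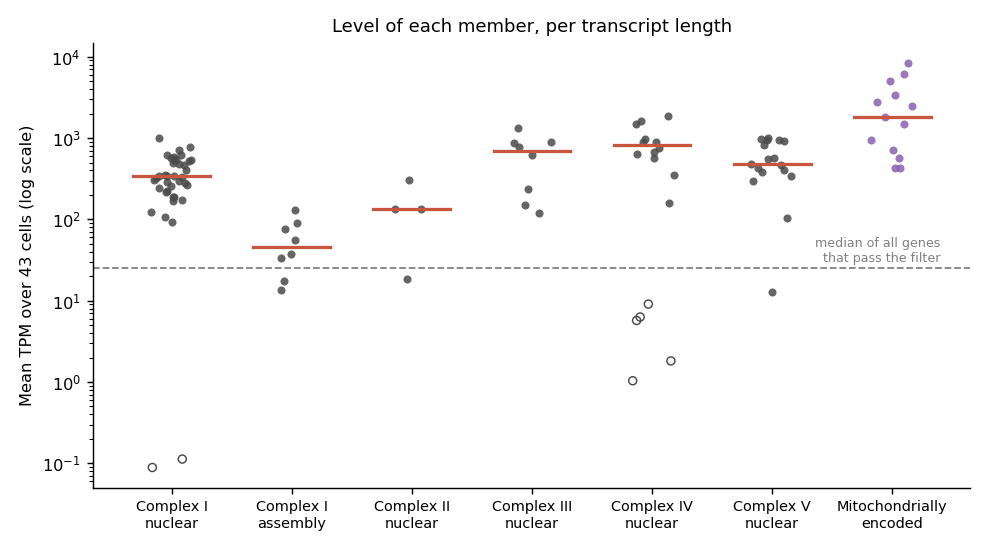
Mean TPM over 43 cells (log axis) of each nuclear member by complex and of the 13 mitochondrially encoded members; each point is a gene, filled where it passed the filter and open where it did not, red lines are medians of the genes that passed, and the dashed line is the median of all genes that passed. Genes listed at 0 are not drawn. Complex IV has the highest nuclear median at 822 TPM and the assembly factors the lowest at 46.3 TPM.

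Within complex I the accessory subunits *Ndufa1*, *Ndufs5* and *Ndufa5* had the highest means at 1010, 780 and 705 TPM, and *Ndufa9* had the lowest of the genes that passed at 93.9 TPM. The core subunits, which carry the flavin and the iron-sulfur clusters, lay between 107 TPM for *Ndufs1* and 542 TPM for *Ndufs7*. In complex II, *Sdhb*, the iron-sulfur subunit, had 307 TPM, *Sdha*, the flavoprotein, 134 TPM, and *Sdhd*, a membrane anchor, 133 TPM. The other anchor, *Sdhc*, stood far below at 18.3 TPM and had counts in 36 cells. In complex III the small subunits *Uqcr11*, *Uqcrq* and *Uqcr10* led with 1319, 897 and 877 TPM, and the core protein *Uqcrc2* was lowest with 121 TPM. In complex V the order was *Atp5g1* (1012 TPM), *Atp5g3* (975 TPM) and *Atp5mpl* (949 TPM). The lowest was *Atp5s*, a coupling factor, with 12.8 TPM and counts in 16 cells. Among the assembly factors *Ndufaf8*, *Ndufaf7* and *Ndufaf3* had 129, 91.4 and 76.6 TPM, and *Ndufaf1* had 13.6 TPM with counts in 14 cells.

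For most complex IV subunits with a choice of isoforms, a single isoform supplied nearly all of the signal. *Cox4i1* was the only isoform of its pair with a count, and *Cox4i2*, known from lung and oxygen sensing, was listed at 0 in 43 cells. A count of 0 in 43 cells allows a share of up to 6.98% of cells with a count, which is no limit on cells that express the gene. *Cox6a1* held 99.4% of the TPM of its pair and the muscle isoform *Cox6a2* had counts in 8 cells. *Cox6b1* held 99.7% and the testis isoform *Cox6b2* had counts in 1 cell. *Cox8a* held 99.9% of its group, with counts of *Cox8b* in 1 cell and of *Cox8c* in none. *Cox7a2* held 81.4%, the muscle isoform *Cox7a1* 0.994% and *Cox7a2l*, which acts in the assembly of supercomplexes, 17.6%. *Cox7b2* had counts in 14 cells and lay above *Cox7b* in 2 of them. *Ndufa4*, a complex IV subunit despite its name, had 899 TPM, and its relative *Ndufa4l2* had no count.

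Of the isoforms at low level, *Cox7a1* was listed at 0 in the 23 REG cells and had counts in 5 HFD cells. Its 208 counts (95% Poisson interval 181 to 238) lay for 67.7% of the HFD mean in HFD replicate 20, so no fold is given. The c subunit of the ATP synthase is made from 3 genes that encode the same mature protein. *Atp5g1* and *Atp5g3* supplied 48.4% and 46.6% of their summed TPM, each was the highest of the group in 21 cells, and *Atp5g2* supplied 4.97%. The share of *Atp5g2* is uncertain, because part of its transcript sequence also occurs in *Gm10175*, another gene with counts. The 11 nuclear members that did not pass the filter were *Cox4i2*, *Cox6a2*, *Cox6b2*, *Cox6c2*, *Cox7a1*, *Cox7b2*, *Cox8b*, *Cox8c*, *Ndufa4l2*, *Ndufa11b* and *Ndufs6b*, and 4 of them had no count in any cell.

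Promoter sequence was read from RefSeq (GRCm38.p6), 250 bases before to 50 bases after each start, for the 74 nuclear members that have an entry there. NRF1, GABPA and YY1 are transcription factors known to bind promoters of respiratory genes, and a fixed word of each binding motif was searched on both strands: GCGCATGCG for NRF1, CCGGAAGT for GABPA and AAGATGGCG for YY1. The NRF1 word overlaps its own reverse complement. It stood in 12.7% of the 79 member promoters and 1.75% of all promoters, and in 3.81% of those of protein-coding genes that passed the filter. The YY1 word stood in 10.1% and 1.40%, and in 3.22% of those of protein-coding genes that passed. The GABPA word stood in 6.33% and 3.89%, but among genes that passed the filter it was less frequent in members (6.67%) than in protein-coding genes (8.18%). At least 1 word stood in 27.8% of member promoters, 6.69% of all promoters and 14.3% of those of protein-coding genes that passed. The GC content had a median of 57.7% in member promoters and 52.7% in all promoters, but among genes that passed the filter it was lower in members (58.7%) than in protein-coding genes (61%). A match is a description of these letters and not evidence of binding. The shares above also count words after the start, where every YY1 match except that of *Atp5j* began, from 10 bases (*Ndufaf8*) to 35 bases (*Ndufs4*). NRF1 words of *Ndufaf5* and *Uqcrc1* lay there too. The following 30-base windows, on the strand of the gene, show words that do lie before the start, in capitals. They come from subunit genes of complexes I, III, IV and V and from 1 assembly factor gene.
*Cox6a1*, chr5:115349101-115349130, minus strand, NRF1 word: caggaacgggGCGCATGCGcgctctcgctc
*Ndufa11*, chr17:56717692-56717721, plus strand, NRF1 word: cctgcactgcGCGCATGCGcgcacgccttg
*Ndufaf4*, chr4:24897960-24897989, plus strand, NRF1 word: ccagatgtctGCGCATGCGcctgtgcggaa
*Atp5k*, chr5:108434430-108434459, minus strand, NRF1 word: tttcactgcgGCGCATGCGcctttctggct
*Atp5j*, chr16:84835045-84835074, minus strand, YY1 word: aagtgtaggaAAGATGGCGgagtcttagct
*Uqcr11*, chr10:80406869-80406898, minus strand, GABPA word: ttctctcctccCCGGAAGTagatgtcaatg

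The summed CPM of the nuclear members made up between 0.145% and 2.71% of the counts of a cell, with a median of 1.11%. Over the 43 cells the sums of nuclear complexes I, III, IV and V were correlated, all being shares of the same cell total. The Spearman correlation was 0.84 between the summed CPM of complexes I and IV, 0.76 between III and IV and 0.72 between IV and V. It was 0.76 between I and V, 0.68 between I and III and lowest between III and V, at 0.58. Over all cells complex II had lower values, with 0.24 to complex I, 0.15 to complex IV and 0.46 to complex V. These differed by batch, with 0.022, −0.028 and 0.14 within batch 1 and 0.51, 0.31 and 0.67 within batch 2. Within batch 2 the correlation between complexes IV and V was 0.61 and that between III and V was 0.38, below that between II and V. The nuclear sum and the mitochondrial sum had a correlation of 0.29, with 0.42 within batch 1 and 0.31 within batch 2. Cells of 1 mouse are not independent, so no p is given.

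The mitochondrial sum varied more than the nuclear sum. It lay between 1386 CPM in REG replicate 11 and 71651 CPM in HFD replicate 19, a ratio of 51.7, whereas the nuclear sum lay between 1447 CPM in HFD replicate 8 and 27069 CPM in REG replicate 3, a ratio of 18.7. HFD replicate 8 is the cell with 79.8% of its counts on *Lars2*. The mitochondrially encoded members held more counts than the nuclear members in 18 of 43 cells. Within a cell the ratio of mitochondrial to nuclear counts had a median of 0.899 and ranged from 0.127 to 6.62. Batch moved with this ratio, whose median was 0.577 in batch 1 and 1.31 in batch 2, and the part of batch in the spread was not tested.

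The mitochondrial genome encodes 7 complex I subunits, cytochrome b of complex III, 3 complex IV subunits and 2 ATP synthase subunits. *mt-Co3*, *mt-Atp6* and *mt-Co2* had the highest mean levels at 8403, 6179 and 5041 TPM. They were followed by *mt-Cytb* (3340 TPM), *mt-Co1* (2768 TPM), *mt-Nd1* (2466 TPM), *mt-Nd3* (1820 TPM) and *mt-Nd4* (1473 TPM). *mt-Nd2* had 947 TPM, *mt-Atp8* 723 TPM, *mt-Nd6* 574 TPM, *mt-Nd4l* 430 TPM and *mt-Nd5* 426 TPM. As a share of the mitochondrial counts of a cell, *mt-Co3* had a median of 20.1% between 4.08% and 33.9%, and *mt-Co1* a median of 16.5% between 4.34% and 33.0%. *mt-Co3* was the largest in 20 cells, *mt-Co1* in 16, *mt-Cytb* and *mt-Atp6* in 3 each and *mt-Co2* in 1. *mt-Nd6*, the only one of the 13 on the minus strand, had a median share of 0.636%, and the protocol gives no sign that strand was kept.

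**Figure D2:**
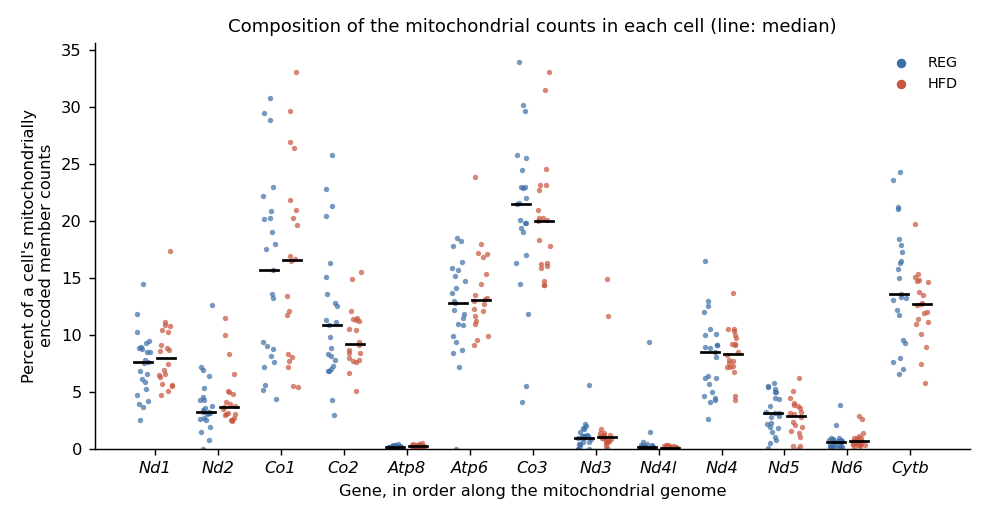
Percent of the mitochondrially encoded member counts of a cell that falls on each of the 13 genes, in order along the mitochondrial genome; each point is a cell, blue for REG (n = 23) and red for HFD (n = 20), and black lines are medians. *mt-Co3* has the highest medians, 21.5% in REG and 20.02% in HFD cells, and the diets overlap at every gene.

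Both pairs of genes that are known to share 1 transcript in the mouse mitochondrion differed in mean TPM. The lower gene of each pair is short, 204 bases for *mt-Atp8* and 297 for *mt-Nd4l*, and TPM divides by length. *mt-Atp6* and *mt-Nd4l* also have near-identical nuclear copies, described below. Whether the differences reflect amounts of RNA was not tested. *mt-Atp8* (chrM:7766-7969) ends inside *mt-Atp6* (chrM:7927-8607), and the mean over cells was 723 TPM for the first and 6179 TPM for the second. *mt-Nd4l* (chrM:9877-10173) overlaps *mt-Nd4* (chrM:10167-11544), and their means were 430 and 1473 TPM. Their overlaps are printed from the GENCODE M21 transcripts (GRCm38), plus strand. The overlap of *mt-Nd5* with *mt-Nd6* on the other strand is shown with them.
*mt-Atp8* and *mt-Atp6*, chrM:7927-7969, 43 bases: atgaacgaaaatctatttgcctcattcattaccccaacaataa
*mt-Nd4l* and *mt-Nd4*, chrM:10167-10173, 7 bases: atgctaa
*mt-Nd5* and *mt-Nd6*, chrM:13552-13565, 14 bases: ttaatctcgagtaa

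Several mitochondrially encoded members have near-identical copies in the nuclear genome, which limits what their counts mean. The share of 31-base words of a gene's transcripts that also occur in another gene's transcripts had a median of 62.8% over the 13 mitochondrially encoded members and 4.32% over the nuclear members. It was 100% for *mt-Co2*, 99.9% for *mt-Co3*, 99.5% for *mt-Atp6*, 98.9% for *mt-Nd4l* and 98.1% for *mt-Nd3*. These 5 genes, *mt-Nd4* and *mt-Co1* each have a copy in a block of 7 unprocessed pseudogenes at chr1:24611535-24616197 on the minus strand. *Gm28437* (783 bases) matched *mt-Co3*, *Gm10925* (678 bases) matched *mt-Atp6* and *Gm28661* (681 bases) matched *mt-Co2* without a mismatch over their length. *Gm28438* had 1 mismatch to *mt-Nd3* over 345 bases, T3C, and *Gm29216* had 6 mismatches over 492 bases at the end of *mt-Co1*, from T1056A on. Positions count from 1 at the first base of the mitochondrial gene, whose base is given first. The stretches of 60 bases that hold these differences, in capitals, show how little separates the rows.
*mt-Co1*, chrM:6381-6440, plus strand: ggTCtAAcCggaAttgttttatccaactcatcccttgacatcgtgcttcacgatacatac
*Gm29216*, chr1:24616138-24616197, minus strand: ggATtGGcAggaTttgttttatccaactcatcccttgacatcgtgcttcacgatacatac
*mt-Nd3*, chrM:9459-9518, plus strand: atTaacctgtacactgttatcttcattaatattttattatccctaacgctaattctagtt
*Gm28438*, chr1:24613060-24613119, minus strand: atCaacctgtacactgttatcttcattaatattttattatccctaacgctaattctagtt

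The counts of the copies were not negligible. In all, 12 such copies in the table held 122331 counts, or 7.50% of the counts on the copies and the 13 members together, and between 2.81% and 33.4% in single cells. *Gm29216* held 93445 of them and had counts in all 43 cells, with a median of 837 CPM against 1404 CPM for *mt-Co1*. The copies of *mt-Co1* together lay above *mt-Co1* in 14 cells. In REG replicate 2, *mt-Atp6* was given 0.234 counts and *Gm10925* 430, whereas over all cells *Gm10925* held 6.45% of the joint counts of both. In 8 cells the copy of *mt-Nd4l* exceeded the gene. Levels of these single genes in single cells are therefore uncertain, and whether any of these counts came from nuclear RNA was not tested.

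**Figure D3:**
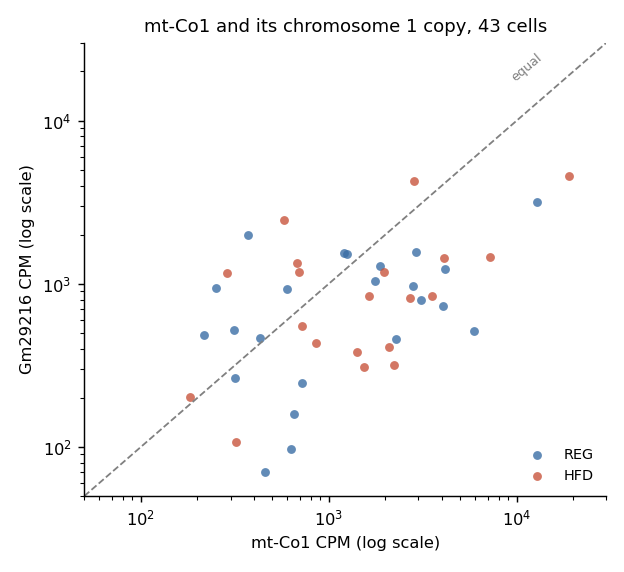
CPM of *mt-Co1* (x axis, log scale) and of its chromosome 1 copy *Gm29216* (y axis, log scale) in each of 43 cells, blue for REG and red for HFD; the dashed line marks equal values. *Gm29216* has counts in every cell, between 70.3 and 4550 CPM.

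Among the nuclear members the same measure was high for few genes. *Ndufb4c* shared 100% of its words with *Ndufb4*, so the 2 rows are uncertain against each other, and *Ndufaf2* shared 65.1% with the overlapping gene *B230220B15Rik*. *Atp5g2* shared 40.2% of its words, most with *Gm10175*, which held 5197 counts. By contrast, 60 of the 97 shared under 10% and 23 shared none.

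For the comparison of diets the summed levels are given first. The nuclear sum had a mean of 12938 CPM in REG cells (lowest 5031, median 11154, highest 27069) and 11480 CPM in HFD cells (lowest 1447, median 10043, highest 22971). The diets overlapped over nearly the whole range. The log2 ratio of the means, HFD over REG, was −0.17, with −0.24 in batch 1, −0.023 in batch 2 and −0.25 to −0.10 when any 1 cell was left out, but it was 0.062 with TMM factors and 0.54 with DESeq2 size factors. The mitochondrial sum had a mean of 13944 CPM in REG (lowest 1386, median 8834, highest 63134) and 14246 CPM in HFD (lowest 1937, median 9250, highest 71651). Its log2 ratio was 0.031, but −0.086 in batch 1, −0.33 in batch 2 and −0.0080 with totals that leave out *Lars2* and *Gm19220*, and it ran from −0.31 without HFD replicate 19 to 0.28 without REG replicate 16. Neither sum thus differed between the diets in a direction that every scaling and batch kept.

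**Figure D4:**
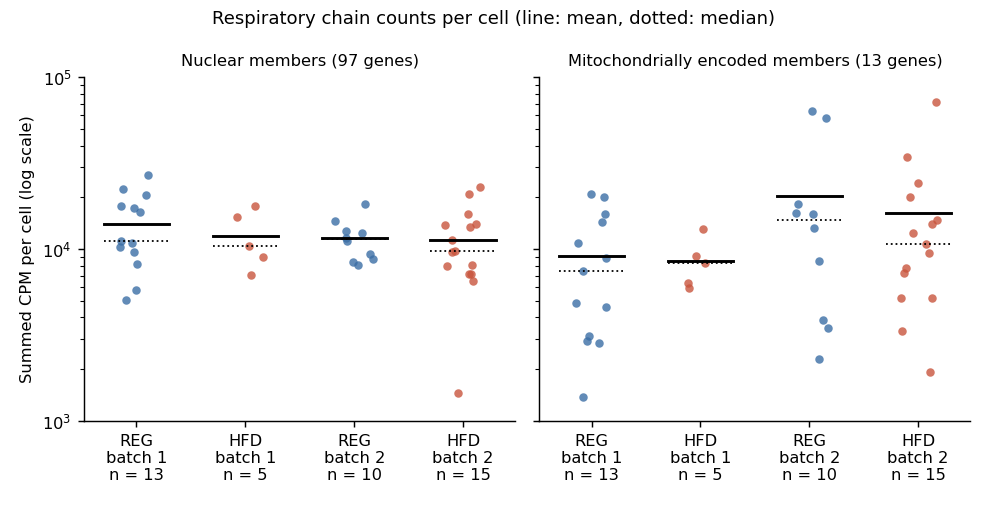
Summed CPM per cell (log axis) of the 97 nuclear members (left) and the 13 mitochondrially encoded members (right), by diet and batch; each point is a cell, solid lines are means and dotted lines are medians. The diets overlap in both batches, and the 3 highest mitochondrial sums are in batch 2.

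The ratio of mitochondrial to nuclear counts does not depend on the total of a cell. On the log2 scale its mean was −0.47 in REG cells, between −2.97 and 2.73, and −0.0026 in HFD cells, between −2.78 and 1.78. HFD cells were thus higher by 0.46, and by 0.35 to 0.61 when any 1 cell was omitted. Within batch 1 the means were −0.90 in REG and −0.45 in HFD cells, a difference of 0.45, and within batch 2 they were 0.098 and 0.15, a difference of 0.049. Batch 2 holds more of the HFD cells and had the higher ratio, and the mean of both within-batch differences was 0.25. With counts of the nuclear copies added, a setting chosen after the data were seen, the difference was 0.45. The mitochondrial counts exceeded the nuclear counts in 7 of the 23 cells on REG and in 11 of the 20 on HFD.

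Gene by gene, few nuclear members differed by 2-fold or more between the diets. Of the 86 that passed the filter, 2 were at least 2-fold higher in HFD (2.33%), where 9.04% of all genes that passed were, and 3 were at least 2-fold lower (3.49%), where 14.3% were. These shares are not of like genes, because the members were more abundant (median 367 against 25.02 TPM). They also varied less between cells (median coefficient of variation 1.01 against 1.596), and no set matched for level was compared. With DESeq2 size factors, 13 nuclear members were at least 2-fold higher and 2 lower. These factors also moved the median log2 ratio of all genes that passed from −0.13 to 0.14. The share of all genes past 2-fold was not computed with them, so these counts have no share beside them. At 1.5-fold, 5 nuclear members were higher, against 18.4% of all genes, and 17 lower (19.8%), against 27.7%. Within batch 1, 4 were at least 2-fold higher (4.65%), against 18.3%, and 15 lower (17.4%), against 23.9%. Within batch 2, 3 were higher, against 13.5%, and 2 lower, against 21.1%. The median log2 ratio was −0.17 over the nuclear members and −0.13 over all genes that passed, and 58 of the 86 (67.4%) lay below 0, against 57.2% of all genes. With TMM factors 41 of the 86 lay below 0 and with DESeq2 size factors 21, and the share of all genes below 0 was not computed with these. The sign was the same in both batches for 40 of the 86 (46.5%) and for 49.2% of all genes that passed. For none of the 86 did the ranges of REG and HFD cells separate, nor for any of the 10802 genes.

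By complex, the log2 ratio of the summed CPM was −0.41 for complex III, −0.20 for complex II, −0.17 for complex I, −0.14 for complex V, −0.12 for complex IV and −0.039 for the assembly factors. With TMM factors it was above 0 for each of these except complex III, at −0.20, and with DESeq2 size factors it was above 0 for all of them, complex III included, at 0.077. In complex III, 7 of 8 members lay below 0, and the ratio of the sum was −0.71 in batch 1 and −0.18 in batch 2. In complex IV, 10 of 12 members that passed lay below 0, with a ratio of −0.45 in batch 1 and 0.084 in batch 2. In complex V, 9 of 17 lay below 0 and in complex I, 24 of 37. Of all genes that passed, 57.2% lay below 0. The counts by complex depend on the scaling. Most complex IV members that passed were above 0 with TMM factors and all of them with DESeq2 size factors, which also left fewer complex III members below 0.

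**Figure D5:**
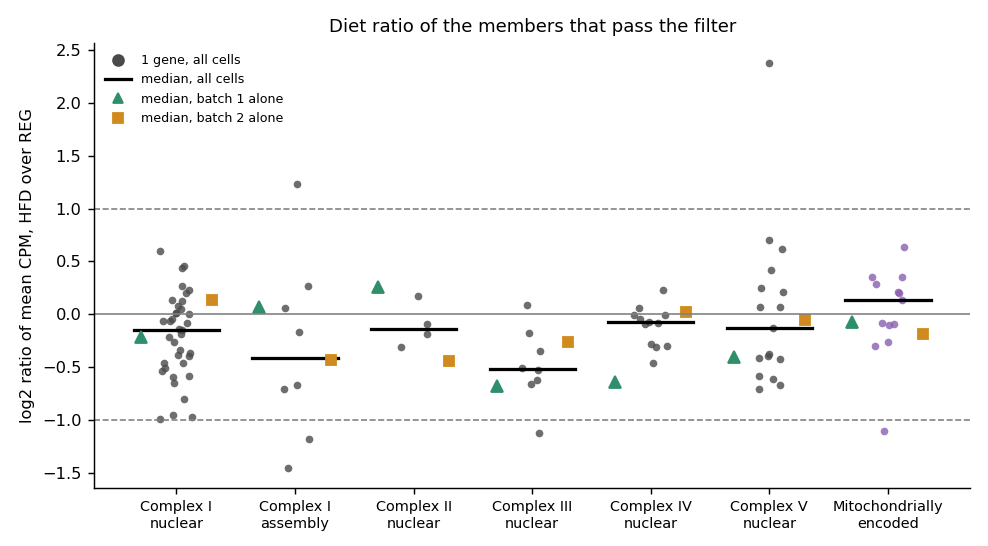
log2 ratio of mean CPM, HFD over REG, of each member that passed the filter, by complex; points are genes over all cells, black lines are their medians, green triangles and orange squares are the medians within batch 1 and batch 2, and dashed lines mark 2-fold. Most points lie within 2-fold, and batch medians of the same complex differ in sign for complexes I, II and IV and the assembly factors.

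Of the 5 nuclear members past 2-fold, *Uqcrb*, a small complex III subunit (chr13:66900617-66905378, GRCm38), was the most widely detected. It had a mean of 156 CPM in REG cells (lowest 15.4, median 122, highest 600.2) and 71.6 CPM in HFD cells (lowest 0, median 45.6, highest 197). The HFD cells ended far below the highest REG cell, but the ranges overlapped. Its log2 ratio was −1.12, with −1.82 in batch 1, −0.63 in batch 2 and −1.26 to −0.92 over cells left out, and it was within 2-fold with TMM factors (−0.80) and DESeq2 size factors (−0.43). The sign also stayed below 0 across batches and single-cell omissions for *Uqcrc2* (−0.66) and *Uqcrc1* (−0.35), the core proteins of complex III, and *Uqcr10* (−0.51), though with DESeq2 size factors *Uqcrc2* was at 0.27 and *Uqcrc1* at 0.022.

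The other 4 past 2-fold were detected in fewer cells, and single cells carried much of their means. *Ndufaf2* (chr13:108002715-108158623), a complex I assembly factor, had 16.5 CPM in REG (median 2.88, highest 157) and 6.02 CPM in HFD (median 1.48, highest 33.9), a log2 ratio of −1.45 with −1.22 and −1.64 in the batches. REG replicate 6 supplied 41.4% of the REG mean, and the ratio was −0.75 without it. *Ndufaf8* (chr11:120098928-120100705), another assembly factor, had 41.6 CPM in REG (median 19.5, highest 333) and 18.3 CPM in HFD (median 4.97, highest 59.6), a ratio of −1.19 that was 0.27 in batch 2 and −0.63 without REG replicate 3.

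*Ndufaf5* (chr2:140170649-140203689), an assembly factor that modifies a complex I core subunit, had 22.3 CPM in REG (median 5.61, highest 154) and 52.3 CPM in HFD (median 18.1, highest 324). Its log2 ratio was 1.23, with 2.43 in batch 1, 0.43 in batch 2 and 0.77 without HFD replicate 2, but it was −0.31 when counts were summed over the cells of a diet. *Atp5s* (chr12:69724950-69744660) had 2.29 CPM in REG, with counts in 6 cells and a highest value of 31.5 CPM, and 11.9 CPM in HFD, with counts in 10 cells and a highest value of 112 CPM. Its log2 ratio was 2.38, with 6.50 in batch 1, 1.31 in batch 2, HFD replicate 17 supplying 47.1% of the HFD mean, and 1.54 without that cell. In summed counts *Atp5s* had 196 (95% Poisson interval 170 to 225) in REG and 630 (582 to 681) in HFD cells. These intervals cover counting error only.

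Members within 2-fold whose sign was the same across batches and single-cell omissions showed smaller differences. On the higher side were the complex I subunits *Ndufa8* at 0.60, *Ndufs7* at 0.45 and *Ndufa3* at 0.44. *Ndufa8* had a median of 56.6 CPM in REG and 94.4 CPM in HFD cells, *Ndufs7* 115 and 153 CPM, and *Ndufa3* 37.1 and 35.3 CPM, so the medians of *Ndufa3* were nearly equal. On the lower side were the complex I subunits *Ndufs8* at −0.99 (median 94.1 CPM in REG and 54.9 CPM in HFD, but 0.021 with DESeq2 size factors) and *Ndufc2* at −0.95 (94.98 and 56.6 CPM), and *Atp5o*, the stalk subunit of the ATP synthase, at −0.71 (136 and 91.9 CPM).

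The genes with the highest levels and the *Sdh* genes lay within 2-fold between the diets in CPM over all cells. *Cox8a* averaged 348 CPM in REG and 407 CPM in HFD, so its log2 ratio was 0.23, with 0.11 and 0.40 in the batches. *Cox4i1* had 540 and 434 CPM, a ratio of −0.32 with −0.15 and −0.39 in the batches, but 0.20 with DESeq2 size factors. For *Cox6c* the ratio was −0.074, with −1.12 in batch 1 and 0.36 in batch 2, but 0.18 with TMM factors and 0.66 with DESeq2 size factors. *Atp5g1* had 320 CPM in REG and 213 CPM in HFD, a ratio of −0.59. In complex II, *Sdhb* was at −0.31, *Sdha* at −0.18 and *Sdhd* at −0.091, but with DESeq2 size factors all of these were above 0, at 0.33, 0.19 and 1.14, and *Sdhd* was at 0.25 with TMM factors. *Sdhc* was at 0.17.

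Of the mitochondrially encoded members, *mt-Nd4l* alone was past 2-fold. It had a mean of 37.1 CPM in REG cells (lowest 0, median 19.1, highest 208) and 17.3 CPM in HFD cells (lowest 0, median 10.2, highest 89.97), and the cells of both diets overlapped. Its log2 ratio was −1.10, with −1.54 and −1.19 in the batches and −0.77 without REG replicate 16, but it was 0.30 with DESeq2 size factors, and 98.9% of its words are shared with *Gm10222*. *mt-Nd3* was at 0.63, with 0.012 and 0.16 in the batches. The other 11 lay between −0.30 for *mt-Cytb* and 0.36 for *mt-Atp8*. Over the 13 the median was 0.13, with −0.075 in batch 1 and −0.19 in batch 2. In batch 2, 12 of 13 lay below 0, where 6066 of all 10802 genes that passed did. The 13 are not independent of each other, since the sums of their complexes had Spearman correlations of 0.92 to 0.97 within batch 2. Over all cells the ratios of *mt-Co2*, *mt-Co3*, *mt-Cytb*, *mt-Nd4* and *mt-Nd5* were below 0 but above it with TMM factors and with DESeq2 size factors. REG replicate 16 or 17 held the largest part of the REG mean of each of the 13 genes, and HFD replicate 19 that of the HFD mean of 12 of them. *mt-Co1*, for example, had 34.7% of its HFD mean in HFD replicate 19, and its ratio of 0.35 was −0.19 without it. The shares of the 13 genes were close between diets, with medians of 15.7% and 16.6% for *mt-Co1*, 21.5% and 20.02% for *mt-Co3* and 12.8% and 13.1% for *mt-Atp6* in REG and HFD cells.

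Genes that act on the chain without being members by name were counted on fixed lists, beside the 9.04% of all genes that were at least 2-fold higher and the 14.3% that were at least 2-fold lower. These counts are of few genes, several lie near those shares, and under the other 5 scalings each moved by at most 2 genes. Of the 8 electron carrier and complex III genes that passed the filter, 2 were at least 2-fold higher in HFD (*Uqcc1* at 1.24 and *Uqcc3* at 1.41, both complex III assembly factors) and 1 lower (*Bcs1l*, −2.04, but 1.12 in batch 1). Cytochrome c (*Cycs*) was at −0.59 and *Cyc1* at −0.23, but at 0.24 and 0.91 with DESeq2 size factors. Of 10 other complex I and II assembly genes, 1 was higher and 4 lower, the latter *Nubpl*, *Ecsit*, *Timmdc1* and *Sdhaf1*, while 2 were lower with TMM factors or DESeq2 size factors, the latter of which put *Sdhaf1* at 0.19 in place of −1.35. Of 17 complex IV assembly genes, 1 was higher (*Sco1*, 1.01, but 0.63 with TMM factors) and 4 lower, among them *Cox16* at −2.56 with −2.55 and −1.89 in the batches. *Cox16* had 37.0 CPM in REG and 6.28 CPM in HFD cells. Of 5 ATP synthase assembly and inhibitor genes, 0 were higher and 1 lower (*Atpaf2*, −1.26). Of 11 genes of mitochondrial transcription and replication, 2 were higher (*Polrmt*, 1.003, and *Ssbp1*, 1.22, but −0.72 in batch 2) and 2 lower (*Tfb1m*, −1.65, and *Slirp*, −1.48). Of 8 biogenesis regulators, 0 were higher and 1 lower (*Gabpa*, −1.53), but 2 (*Ppargc1a* and *Esrra*) were higher with TMM factors and with DESeq2 size factors. Over all cells *Ppargc1a* was at 0.91 (−0.22 in batch 1), *Esrra* at 0.75 and *Nrf1* at 0.69 (−0.46 in batch 1). Of 8 uncoupling and carrier genes, 0 were higher and 1 lower (*Ucp2*, −1.07, but −0.61 with TMM factors).

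Some markers of other cell types were higher in HFD. Of 7 microglial markers, 5 passed the filter and 2 were at least 2-fold higher in HFD. The summed median of the 7 was nearly equal, at 50.8 CPM in REG and 52.3 CPM in HFD cells. Their sum ran from 0.341 to 1326 CPM in REG and from 2.61 to 1467 CPM in HFD cells, and none was at 0 in every cell. At least 4 of the 7 were above 15 CPM in 2 REG and 4 HFD cells. Without these 6 cells the log2 ratio of the nuclear sum was −0.20, with 2 nuclear members at least 2-fold higher and 5 lower. The median of all genes that passed was then −0.19, and their shares past 2-fold were not computed. Of 6 oligodendrocyte markers, 4 passed, and their summed median was 98.5 CPM in REG and 187 CPM in HFD cells (1.41 to 1185 and 4.79 to 1947 CPM), but *Mobp* and *Mbp* were below 0 in batch 1. The 5 endothelial markers had summed medians of 259 and 318 CPM, nearly all of it *Pecam1*, the only one that passed the filter, which was at 0.89 over all cells and −1.39 in batch 1. *Kdr* was at −2.73, and *Cldn5* and *Cdh5* were at 0 in HFD cells and had counts in 1 REG cell each. The 6 astrocyte markers had summed medians of 40.7 and 35.0 CPM. The 5 medium spiny neuron markers had 2650 and 2272 CPM, the 4 D1 markers 2010 and 1854 CPM, the 3 GABAergic markers 776 and 713 CPM, and the 5 markers of parvalbumin and cholinergic interneurons 37.7 and 17.4 CPM, with *Slc18a3* at 0 in all cells. The part of the oligodendrocyte and endothelial markers in the member results was not tested.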

How the data were processed

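Polyadenylated RNA of 43 single NAcLat→VTA cells was amplified and sequenced by the authors, 1 library per cell. With kallisto, the authors pseudo-aligned reads to GRCm38 transcripts, added up the transcripts of each gene symbol, removed cells low in reads or genes, and deposited estimated counts without normalization (unit: estimated counts per gene, 65.5% of those above 0 near a whole number). A second table deposited by the authors holds TPM. All columns of both tables were used, and kallisto shares reads between near-identical transcripts by an estimate, which bears on genes with copies. Groups and batches were taken from the labels.

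CPM was computed from the total estimated count of each cell. Log2 ratios are of HFD over REG mean CPM, with no pseudocount, and a member was counted as higher or lower at 2-fold. No test was made, because the mouse of a cell is not named and each diet is then 1 sample. Poisson intervals (95%, exact) cover counting error only. The depth, from 176961 to 16919555 counts per cell, sets that error, and the spread between cells was far larger. The filter (above 15 CPM in at least 5 cells, mean above 4 CPM) follows the study's methods.

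Named genes were the 13 mitochondrially encoded members, the 3 highest and the lowest member by mean TPM of each nuclear complex and of the assembly factors, the *Sdh* genes, isoform groups, and the 5 members with the highest and the 5 with the lowest log2 ratio among those whose sign was the same across batches and single-cell omissions. *Ndufaf8*, the other *Uqcr* members and the genes named from lists were added after their values were seen. Members and lists were chosen with earlier results of these data known. Marker and pathway lists are those of the last paragraphs of the results.

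Alternatives were TPM, TMM factors (edgeR 4.0.16), size factors of DESeq2 1.42.0, totals without *Lars2* and *Gm19220* or without mitochondrially encoded genes, other summaries over cells, each batch, thinning to 150000 counts, other filters and folds, cells without microglial markers and leaving out each cell. Adding the nuclear copies (rows sharing at least 100 words of 31 bases with a mitochondrially encoded gene) was chosen after the data were seen. Words, copies and coordinates were read from GENCODE M21 (GRCm38), which may differ from the transcript release the authors used. The ratio and interval code was tested on simulated data. R 4.3.3 and Python 3.11.15 were used, the latter with scipy 1.17.1, pandas 2.3.3, matplotlib 3.10.9 and numpy 2.4.6. Recordings and imaging of the study were not analysed here.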

Additional observations from a re-analysis of the deposited data

Results flagged for a closer look

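Rows of the tables that are not members held counts above the 3 counts that a count of 0 allows, and they were noticed because they lie outside the comparisons. Of the 8 names that contain -ps, *Atp5l2-ps* held 4.07 estimated counts in 4 cells. Of the nuclear copies of mitochondrially encoded genes, *Gm29216* (like *mt-Co1*) held 93445 counts, *Gm28437* (like *mt-Co3*) 16158, *Gm10925* (like *mt-Atp6*) 12417 and *Gm28661* (like *mt-Co2*) 188. Lower sums were found for *Gm10222* (like *mt-Nd4l*, 74.9998), *Gm13340* (like *mt-Co1*, 22.1), *Gm13341* (like *mt-Co2*, 16.3), *Gm13339* (like *mt-Nd2*, 5.18) and *Gm28438* (like *mt-Nd3*, 4.00001). *Gm28439* (like *mt-Nd4*) had no count although all of its words occur in *mt-Nd4*. Whether these counts came from nuclear or mitochondrial RNA was not tested.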

How the results depend on the processing

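The order of values in this paragraph is nuclear sum, mitochondrial sum and difference of the mitochondrial-to-nuclear ratio, each on the log2 scale, HFD against REG, and the causes of the shifts were not tested. With TPM the sums were −0.22 and 0.020, with TMM 0.062 and 0.44, with DESeq2 size factors 0.54 and 1.39, with totals without *Lars2* and *Gm19220* −0.13 and −0.0080, and as a difference of mean log2(CPM + 1) −0.24 and 0.22. Medians over cells gave −0.15, 0.066 and 0.57, and summed counts −0.11, 0.66 and 0.78. Batch 1 gave −0.24 and −0.086, batch 2 −0.023, −0.33 and 0.049, and the mean of both −0.13, −0.21 and 0.25. Without cells that hold microglial markers the values were −0.20, 0.084 and 0.55, the nuclear sum thinned to 150000 counts gave −0.16, and the mitochondrial sum with nuclear copies added, a setting chosen after the data were seen, 0.055. TMM factors moved the median of all genes that passed the filter from −0.13 to 0.0061, DESeq2 size factors to 0.14, and the difference of means of log2(CPM + 1) to −0.25.

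The median of the nuclear members was 0.017 with TMM, 0.44 with DESeq2 size factors, −0.30 as a difference of mean log2(CPM + 1), −0.38 in batch 1 and −0.027 in batch 2. Nuclear members at least 2-fold higher numbered 2 over all cells, but 13 with DESeq2 size factors, 4 in batch 1, 1 with the filter at 10 cells and 5 at 1.5-fold. Those at least 2-fold lower numbered 3 over all cells, but 1 with TMM, 15 in batch 1, 5 without the filter, 17 at 1.5-fold and 5 without cells that hold microglial markers. Shares of all genes past these folds were computed with CPM over all cells and within each batch, and not for the other settings. *Ndufaf5* was at −0.31 in summed counts, *Ndufaf8* at 0.27 in batch 2 and *mt-Nd4l* at 0.30 with DESeq2 size factors, each with the opposite sign to the value over all cells. Leaving out each cell in turn gave −0.25 to −0.10 for the nuclear sum, −0.31 to 0.28 for the mitochondrial sum, 0.35 to 0.61 for the ratio, 1 to 3 members higher, 2 to 6 lower and a median of −0.30 to −0.10. The sum of the mitochondrially encoded members changed sign for 13 of the 43 cells left out. Below 2-fold without 1 cell were *Ndufaf2* (−0.75 without REG replicate 6), *Ndufaf8* (−0.63 without REG replicate 3), *Uqcrb* (−0.92 without REG replicate 4), *Ndufaf5* (0.77 without HFD replicate 2) and *mt-Nd4l* (−0.77 without REG replicate 16). No paired analysis was possible because no label matches a REG cell with an HFD cell.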

Other observations

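The nuclear members are spread over the genome, with 96 placed on 19 chromosomes and at most 10 on 1 of them, chromosome 7. Of the 93 members compared, 26 (28.0%) had another gene that starts within 1000 bases on the opposite strand and runs away from them, against 9.92% of all protein-coding genes. Among genes that passed the filter the shares were 30.6% and 14.8%. Examples are *Ndufa7* beside *Rps28*, a ribosomal protein gene, at 10 bases, *Ndufb9* beside *Tatdn1* at 18 bases, *Sdha* beside *Ccdc127* at 29 bases and *Sdhd* beside *Timm8b*, a gene of mitochondrial import, at 98 bases. *Ndufaf2*, *Ndufaf5*, *Ndufaf8* and *Atp5s* also have such a neighbour. This is a description, and no test was made of these shares.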
